A study of Mus musculus with 6 samples.

Results

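The genes described here encode the subunits of PP2A, PP4 and PP6, the related serine/threonine phosphatases of the PP2A family, and the factors that assemble and methylate their catalytic subunits. A list of 33 symbols defined the set, and all 33 were found among the 54532 genes of the deposited table, 18 of them PP2A subunits, 4 PP4 subunits, 7 PP6 subunits and 4 assembly or methylation factors. RNA selected for poly(A) from whole testis of mice on postnatal day 9 was compared between 3 wild-type libraries and 3 libraries from conditional Ppp6r3 knockouts (Ppp6r3 cKO). Which Cre drove the deletion and which exons it removed is not in the labels, nor is it stated that replicates were different animals. The p-values therefore measure the spread between these libraries, which may be technical. The series title places the study in PPP6R3-dependent dephosphorylation and mRNA translation as spermatogonia differentiate. The question put to the data here is how the transcripts of the phosphatase itself and of its relatives stood when 1 PP6 regulatory subunit was deleted.

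PP2A works as a trimer in which a scaffold subunit holds a catalytic subunit and 1 exchangeable regulatory subunit, and the regulatory subunit selects substrates and location. PP4 and PP6 have their own catalytic subunits and their own regulatory partners: PP6 pairs its catalytic subunit with a SAPS-domain subunit (Ppp6r1, Ppp6r2 or Ppp6r3) and an ankyrin repeat subunit (Ankrd28, Ankrd44 or Ankrd52). The enzymes oppose kinases of the cell cycle, DNA damage signalling and growth control, and PP6 is known for dephosphorylating Aurora A on the spindle.

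Levels are given as FPKM, which divides the fragments of a gene by its exon length and by the depth of the library, so that levels of different genes can be compared per length. Depth recovered from the steps between FPKM values was 15970908 to 16606868 fragments per library. A gene was tested when it had at least 10 fragments in at least 3 libraries, and 17667 genes met this. Fold changes are differences between the group means of log2(FPKM + 0.1), which understates the change of low genes, and "rose" or "fell" means a limma p-value under 0.05 after Benjamini-Hochberg adjustment across the 17667 genes. Ppp6r3 cKO replicate 1 stood apart by GC content: when genes were put into 10 bins by GC, its median log2 deviation from the mean of the libraries was -0.112 in the bin with the least GC and 0.126 in the bin with the most. Calls of members that changed without it, or after a GC and length correction, are given with the gene.

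Of the 33 genes, 32 were tested, of which 4 fell, 1 rose and 27 did not pass. The 5 that passed were 15.6% of those tested. Of the 17667 background genes 15.5% changed (7.65% up and 7.83% down), so the set passed about as often as tested genes in general. The median log2 fold change was 0.02 for the 32 and 0.00 for all tested genes. Without regard to sign the medians were 0.09 and 0.14, so the members moved less in size. Without the targeted gene, 4 of 31 changed, or 12.9%. The fallers were the PP4 subunit Ppp4r4, the targeted Ppp6r3, the demethylating enzyme Ppme1 and the PP6 catalytic subunit Ppp6c, and the riser was Ankrd52. The groups did not overlap for 14 of the 32 genes (43.8%), against 36.9% of all tested genes. For a single value, groups of 3 libraries allow no exact permutation p below 0.1.

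**Figure D1:**
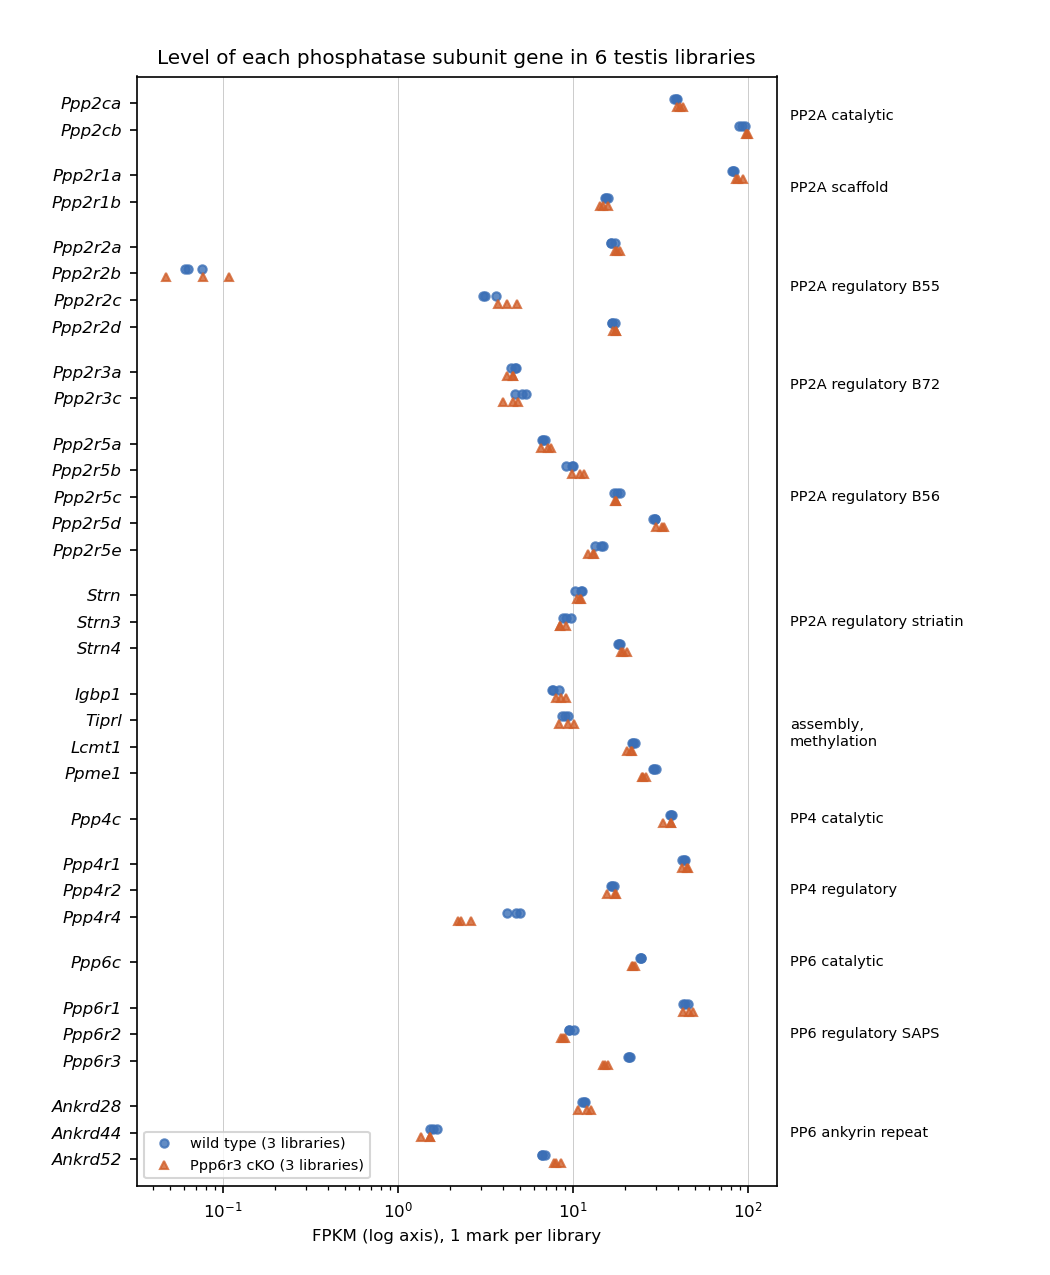
FPKM of each of the 33 genes on a log axis, with a circle for each wild-type library and a triangle for each Ppp6r3 cKO library, grouped by subunit class. Ppp2cb and Ppp2r1a stand at the right near 100 FPKM, Ppp2r2b stands alone at the left below 0.2 FPKM, and the marks of the groups separate widely only for Ppp4r4 and Ppp6r3.

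Within PP6, the targeted gene Ppp6r3 (ENSMUSG00000024908, protein-coding, minus strand, chr19:3454928-3575749 in mm10) fell to 73.0% of its wild-type level. It stood at 20.8, 21.3 and 21.005 FPKM in the wild-type libraries and at 15.8, 15.3 and 14.9 FPKM in the Ppp6r3 cKO libraries. The groups were far apart relative to their spread (log2 fold change -0.45, SE 0.042, limma adjusted p = 0.000697). Exons of Ppp6r3 share 501 bases with Gm48696 on the opposite strand, and reads from the shared bases could not be told apart, since the strand setting of the counting is not given in the sources used here. It is a sum over all exons and all cells of the testis, so it gives no level for the cells that carry the deletion. In such bulk samples, fewer cells of a type and less RNA per cell cannot be told apart.

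The other SAPS subunits did not pass. Ppp6r1, the most abundant of them, stood at 45.8, 42.7 and 43.6 FPKM in wild type and 48.6, 46.5 and 42.8 FPKM in Ppp6r3 cKO, and the groups overlapped (log2 fold change 0.06, 95% interval -0.06 to 0.19, and -0.006 after the GC and length correction). Ppp6r2 stood at 9.56, 9.56 and 10.2 FPKM against 8.98, 8.62 and 8.77 FPKM. Its cKO libraries all lay below wild type, but the gene did not pass (log2 fold change -0.15, 95% interval -0.26 to -0.03, limma adjusted p = 0.0807). It was called lower by voom (adjusted p = 0.0251) and after the GC and length correction (-0.19, adjusted p = 0.0231). Neither paralog was therefore called higher, and the upper bounds of their intervals are 113.7% of the wild-type level for Ppp6r1 and 97.6% for Ppp6r2.

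The makeup of the SAPS pool moved accordingly. Ppp6r3 made up 28.1 ± 0.832% of the summed SAPS FPKM in wild type and 21.9 ± 0.461% in Ppp6r3 cKO (SD, n = 3 each), a difference of -6.19 percentage points with no overlap between the groups (exact permutation p = 0.1, 2-sided). Ppp6r1 took 58.8 ± 1.14% and 65.5 ± 1.01% of the pool. The summed FPKM of Ppp6r1 and Ppp6r2 was 53.8 ± 1.55 in wild type and 54.7 ± 3.02 in Ppp6r3 cKO, with overlapping groups. The sum of all SAPS genes was 74.8 ± 1.30 against 70.1 ± 3.47 FPKM. Its groups were just apart, with the lowest wild-type value at 73.51 and the highest Ppp6r3 cKO value at 73.38 FPKM (exact permutation p = 0.1, 2-sided). Of the 22 such shares examined in 7 classes, each with an exact test, none can go below p = 0.1 before adjustment.

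Ppp6c, the single catalytic subunit of PP6 (ENSMUSG00000026753, minus strand, chr2:39194354-39226451), was slightly lower. It stood at 24.7, 24.6 and 24.2 FPKM in wild type and 22.1, 21.9 and 22.7 FPKM in Ppp6r3 cKO. The groups did not overlap and the gene fell to 90.8% of wild type (log2 fold change -0.14, SE 0.038, limma adjusted p = 0.0445). This call was lost without any 1 of the 6 libraries (adjusted p from 0.06 to 0.136), and the value was -0.09 with an adjusted p of 0.217 after the GC and length correction. The SAPS sum was 3.05 ± 0.0587 times the Ppp6c level in wild type and 3.15 ± 0.201 times in Ppp6r3 cKO, so the ratio of regulatory to catalytic transcript overlapped between the groups.

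Among the ankyrin repeat subunits, which bind the SAPS subunit, Ankrd52 (ENSMUSG00000014498, plus strand, chr10:128377115-128408704) rose to 119.8% of wild type. It stood at 6.70, 6.70 and 6.95 FPKM in wild type and 8.56, 8.06 and 7.77 FPKM in Ppp6r3 cKO, with the highest value in replicate 1. The groups did not overlap (log2 fold change 0.26, SE 0.057, limma adjusted p = 0.0208), and the value was 0.19 after the GC and length correction (adjusted p = 0.0271). The call was lost when any wild-type library, or replicate 2 of Ppp6r3 cKO, was left out, with adjusted p of 0.0654, 0.0729, 0.0533 and 0.0506. Exons of Ankrd52 share 385 bases with genes on the opposite strand. Ankrd28, the most abundant of the class, stood at 11.8, 11.3 and 11.7 FPKM against 10.7, 12.02 and 12.7 FPKM, and its cKO libraries spread on both sides of wild type (log2 fold change 0.02, 95% interval -0.13 to 0.17). Ankrd44 was the scarcest, at 1.59 ± 0.0729 and 1.47 ± 0.1 FPKM, and did not pass. Ankrd52 thus made up 34.0 ± 0.609% of the class in wild type and 38.0 ± 2.91% in Ppp6r3 cKO, ranging from 35.4% to 41.1% in the latter. The difference in this share was 4.06 percentage points, and 2.51 without Ppp6r3 cKO replicate 1.

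**Figure D2:**
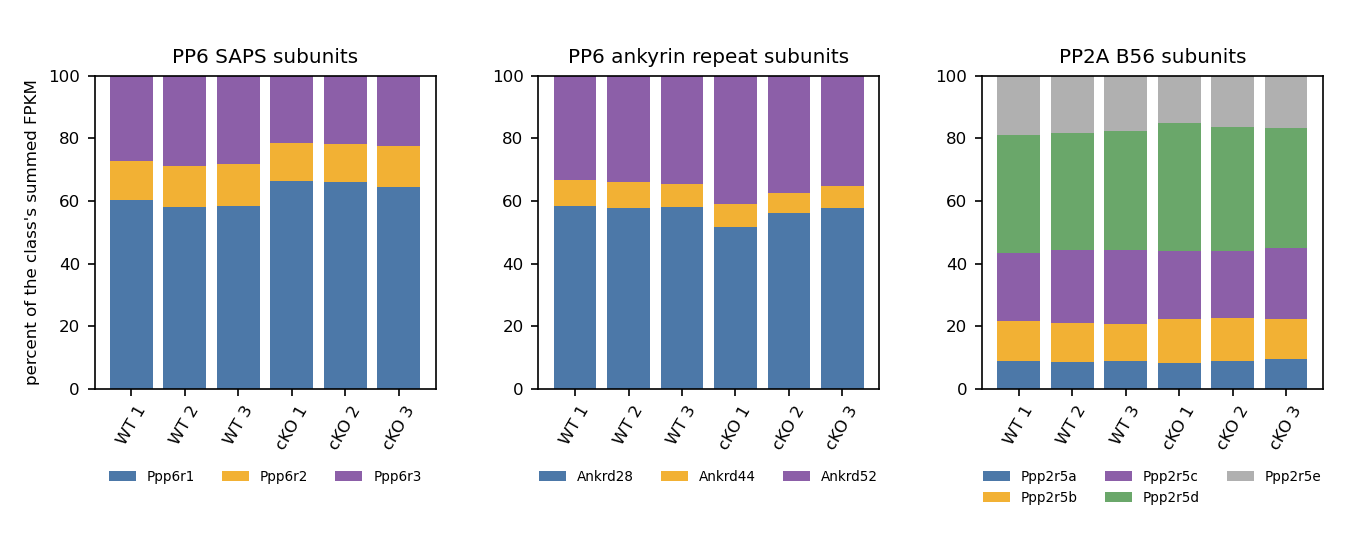
Percent of the summed FPKM of a class held by each member, for the PP6 SAPS, PP6 ankyrin repeat and PP2A B56 subunits, with 1 stacked bar for each of the 6 libraries. The Ppp6r3 segment narrows from 27.3% to 29.0% in the wild-type bars to 21.6% to 22.4% in the cKO bars.

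The largest change in the set was in PP4, whose catalytic subunit acts in DNA repair and centrosome maturation. Ppp4r4 (ENSMUSG00000021209, protein-coding, plus strand, chr12:103532283-103613831), a PP4 regulatory subunit, stood at 4.77, 4.21 and 5.004 FPKM in wild type and 2.63, 2.31 and 2.22 FPKM in Ppp6r3 cKO. Every cKO library lay far below every wild-type library, at 51.2% of the wild-type mean. The log2 fold change was -0.94 (SE 0.1, 95% interval -1.17 to -0.71, limma adjusted p = 0.00138), a larger fall than that of the targeted gene. In all, 138 genes that passed fell by at least as much as Ppp4r4, Ppp4r4 included. Between 150 and 335 fragments per library supported the value, and no exon of another annotated gene overlapped its exons.

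The direction and the call of Ppp4r4 held under all 17 alternative settings tried, with log2 fold changes from -1.01 to -0.74 and adjusted p from 9.57e-08 to 0.0106. Without Ppp6r3 cKO replicate 1 and without each other library in turn the value lay between -1.01 and -0.88. Markers of meiotic germ cells moved the same way. All 12 of that list fell (median log2 fold change -1.04), and their summed level was 199.6 to 207.3 FPKM in wild type and 101.7 to 113.9 FPKM in Ppp6r3 cKO, with none of the 12 at 0 in every library. Of 6 markers of differentiating spermatogonia, 2 rose and 2 fell, and their sum went from 287.0 to 296.4 FPKM in wild type to 196.9 to 211.4 FPKM. That sum was carried by Stra8 (mean 129.9 to 51.4 FPKM) and Rhox13 (66.1 to 47.4 FPKM), while Dmrtb1 and Ccnd2 rose and the median log2 fold change of the list was 0.00. The part of these cells in the fall of Ppp4r4 was not tested.

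The other PP4 subunits did not pass. Ppp4c, the catalytic subunit, stood at 36.3, 35.8 and 36.8 FPKM against 36.4, 36.6 and 32.9 FPKM, with only replicate 3 of Ppp6r3 cKO below wild type (log2 fold change -0.04, 95% interval -0.15 to 0.07). Ppp4r1, a scaffold-like regulatory subunit and the most abundant PP4 gene, stood at 43.5, 43.6 and 42.0 FPKM against 45.9, 44.7 and 42.3 FPKM, and the groups overlapped. Ppp4r2 was at 16.9 ± 0.344 and 17.0 ± 1.12 FPKM. Ppp4r4 was thus the scarcest of the PP4 regulatory subunits listed, and its level relative to Ppp4c went from 0.128 ± 0.00955 in wild type to 0.0676 ± 0.00455 in Ppp6r3 cKO. The partners Ppp4r3a and Ppp4r3b, which complete the PP4 trimer with Ppp4r2 and were not on the list of 33, had log2 fold changes of -0.06 and 0.14 and did not pass.

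**Figure D3:**
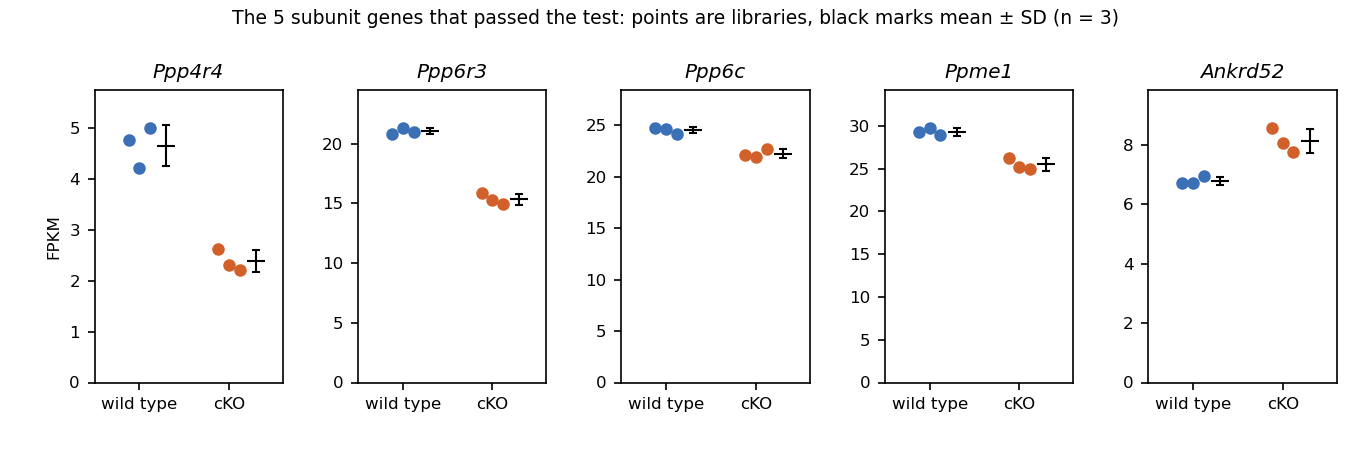
FPKM of the 5 genes that passed the test, with 1 point per library and black marks for the group mean ± SD (n = 3), on linear axes from 0. Ppp4r4 drops from between 4.21 and 5.004 FPKM to between 2.22 and 2.63 FPKM, while the other 4 genes shift by smaller fractions of their level.

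Of the factors that build PP2A-type enzymes, Ppme1 fell. It encodes the methylesterase that removes the methyl group from the carboxyl terminus of the PP2A catalytic subunit (ENSMUSG00000030718, minus strand, chr7:100326737-100372307). Its level was 29.3, 29.7 and 28.9 FPKM in wild type and 26.3, 25.2 and 25.0 FPKM in Ppp6r3 cKO, without overlap. The log2 fold change was -0.20 (SE 0.04, limma adjusted p = 0.014), or 87.0% of the wild-type level. The call was lost without wild-type replicate 2 (-0.19, adjusted p = 0.0626) and held without each of the other 5. Exons of Ppme1 share 75 bases with C2cd3 on the opposite strand. The opposing methyltransferase Lcmt1 stood at 22.3 ± 0.495 and 21.3 ± 0.809 FPKM (log2 fold change -0.07, not passing). Igbp1, which binds and stabilises free catalytic subunits, had a log2 fold change of 0.13 (0.08 without Ppp6r3 cKO replicate 1), and Tiprl, which binds them as well, had 0.03 (0.11 without that library). Neither passed, and both had overlapping groups.

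No PP2A subunit passed. Of 17 tested, 11 had a positive and 6 a negative log2 fold change, with a median of 0.06. At an unadjusted p under 0.05 there were 6 (35.3%, against 31.4% of all tested genes). Voom on the recovered fragments called 3 (17.6%, against 23.0%): Ppp2r1a and Ppp2r2c higher and Ppp2r5e lower. The groups did not overlap for 8 of the 17 (47.1%, against 36.9% of all tested genes).

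**Figure D4:**
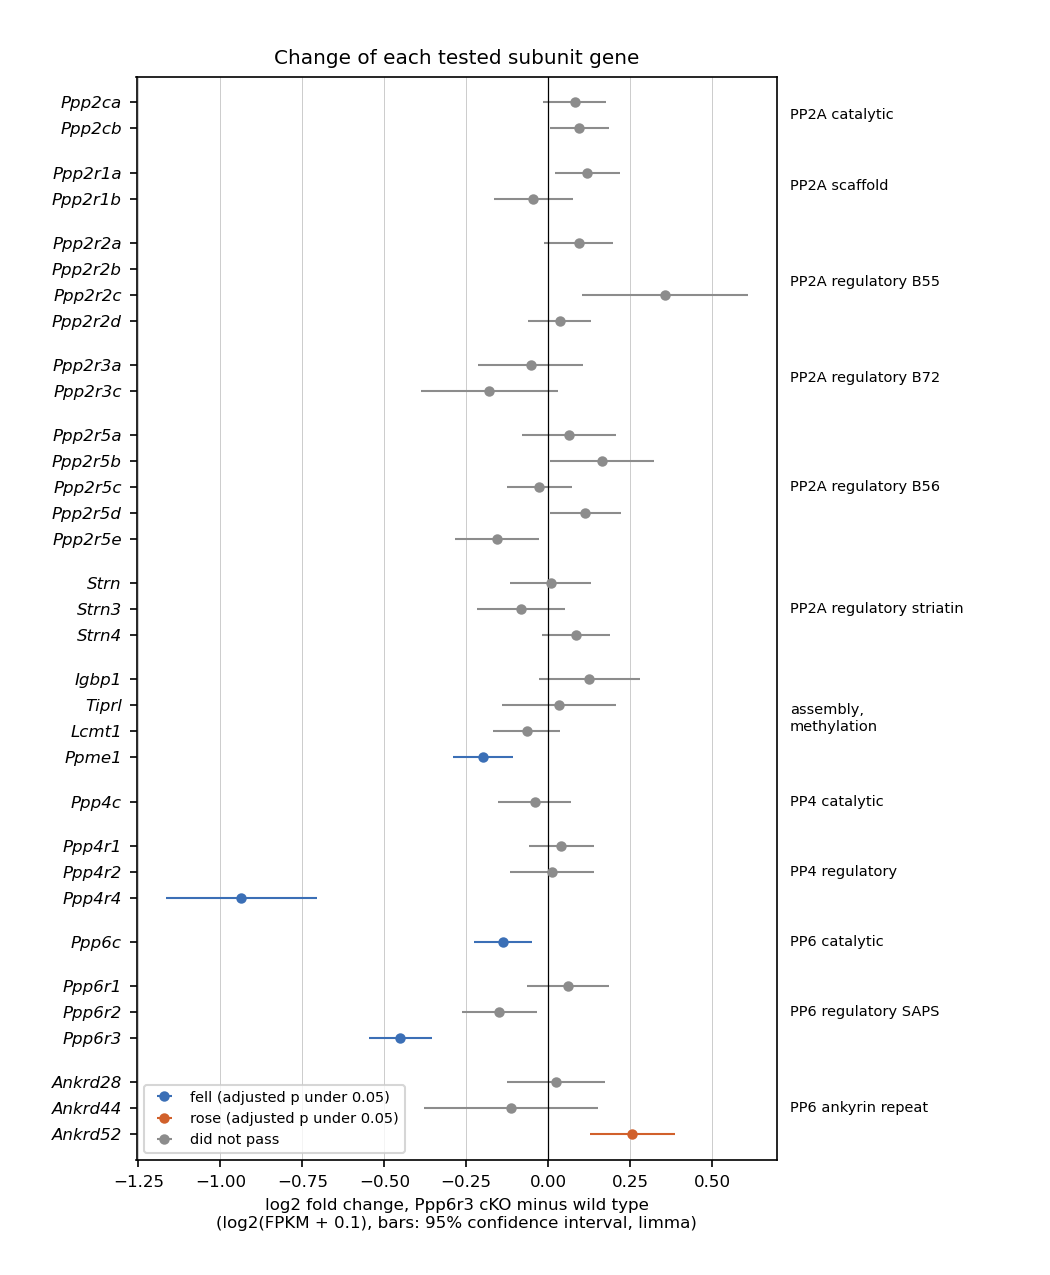
Log2 fold change (Ppp6r3 cKO minus wild type) of each tested gene on the log2(FPKM + 0.1) scale, with limma's 95% confidence interval as a bar and colour for the call. Only Ppp4r4, Ppp6r3, Ppme1, Ppp6c and Ankrd52 are coloured as passing, and the PP2A intervals lie within -0.39 and 0.61.

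The PP2A core transcripts were the most abundant of the set. Ppp2cb, 1 of the catalytic paralogs, stood at 92.2, 89.2 and 96.3 FPKM in wild type and 100.3, 97.6 and 98.7 FPKM in Ppp6r3 cKO. Ppp2ca, the other paralog, stood at 38.1, 39.1 and 39.3 FPKM against 39.5, 42.7 and 41.0 FPKM. In both, every cKO library lay above every wild-type library, by little: the log2 fold changes were 0.09 (limma adjusted p = 0.143; called at 0.15 after the GC and length correction, adjusted p = 0.034) and 0.08 (adjusted p = 0.233). Ppp2cb was 2.39 ± 0.0885 times as high as Ppp2ca in wild type and 2.41 ± 0.127 times in Ppp6r3 cKO, with overlapping groups. Exons of a gene on the other strand and small RNA genes cover part of the Ppp2ca exons, 3093 bases on the opposite strand, and reads from them could not be told apart without the strand setting.

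Of the scaffold genes, Ppp2r1a stood at 83.2, 82.0 and 81.6 FPKM against 94.4, 85.7 and 88.1 FPKM, highest in Ppp6r3 cKO replicate 1. It did not pass (log2 fold change 0.12, 95% interval 0.02 to 0.22, limma adjusted p = 0.103), though it was called by voom (adjusted p = 0.032) and after the GC and length correction (0.13, adjusted p = 0.0304). With the block added to that correction it was not called (adjusted p = 0.0553), and without Ppp6r3 cKO replicate 1 its log2 fold change was 0.08 (adjusted p = 0.142). Ppp2r1b stood at 15.5 ± 0.288 and 15.1 ± 0.896 FPKM. Ppp2r1a held 84.1 ± 0.275% of the scaffold pool in wild type and 85.6 ± 0.492% in Ppp6r3 cKO, without overlap. The scaffold sum was 0.745 ± 0.0267 of the catalytic sum in wild type and 0.747 ± 0.0384 in Ppp6r3 cKO.

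Set against PP6, the PP2A catalytic sum was 5.37 ± 0.217 times the Ppp6c level in wild type and 6.29 ± 0.13 times in Ppp6r3 cKO. The range went from 5.21 to 5.61 in wild type and from 6.15 to 6.41 in Ppp6r3 cKO, so the groups did not overlap (exact permutation p = 0.1, 2-sided).

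The B55 subunits, which direct PP2A to mitotic substrates, were led by Ppp2r2a and Ppp2r2d at similar levels. Ppp2r2a stood at 17.5, 16.6 and 16.5 FPKM against 17.5, 17.9 and 18.7 FPKM, and it did not pass (log2 fold change 0.09, limma adjusted p = 0.211). Ppp2r2d was at 17.0 ± 0.419 and 17.5 ± 0.36 FPKM. Ppp2r2c, a paralog best known from brain, stood at 3.63, 3.16 and 3.07 FPKM against 4.78, 4.22 and 3.72 FPKM. It had the largest positive log2 fold change of the set, 0.36 (95% interval 0.10 to 0.61), and did not pass (limma adjusted p = 0.0649). It was called with voom (adjusted p = 0.0114), with replicate numbers fitted as a block (0.0396) and without Ppp6r3 cKO replicate 3 (0.44, adjusted p = 0.0429). It was farther from the threshold without Ppp6r3 cKO replicate 1 (0.27, adjusted p = 0.147), without wild-type replicate 2 (0.33, adjusted p = 0.163) and without wild-type replicate 3 (0.31, adjusted p = 0.173). Ppp2r2b, another paralog of the nervous system, was covered by 3 to 7 fragments per library, at 0.0471 to 0.109 FPKM, and was not tested.

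The B56 subunits, which read short docking motifs in their substrates and act at kinetochores, gave mixed signs. Ppp2r5d, the most abundant, stood at 29.6, 29.7 and 28.9 FPKM against 33.2, 32.3 and 30.02 FPKM (log2 fold change 0.11, limma adjusted p = 0.141). Ppp2r5e stood at 14.97, 14.4 and 13.5 FPKM against 12.2, 13.2 and 13.0 FPKM (log2 fold change -0.16, adjusted p = 0.0967, called lower by voom with 0.0326). The groups did not overlap in either gene, in opposite directions. Accordingly Ppp2r5d held 37.6 ± 0.314% and 39.7 ± 1.22% of the B56 pool in wild type and Ppp6r3 cKO, and Ppp2r5e 18.3 ± 0.648% and 15.98 ± 0.833%. Ppp2r5a, Ppp2r5b and Ppp2r5c had log2 fold changes of 0.06, 0.16 and -0.03 with overlapping groups.

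The striatins scaffold a PP2A complex that carries STE20-type kinases, called STRIPAK. Strn4, the most abundant, stood at 18.2, 18.4 and 18.7 FPKM against 20.6, 19.0 and 19.3 FPKM (log2 fold change 0.09, not passing, and 0.009 after the GC and length correction). Strn and Strn3 had log2 fold changes of 0.01 and -0.08 and overlapping groups. In the B72 class, Ppp2r3c stood at 4.68, 5.11 and 5.38 FPKM against 3.99, 4.86 and 4.53 FPKM (log2 fold change -0.18, 95% interval -0.39 to 0.03, not passing, and -0.10 without Ppp6r3 cKO replicate 1), and Ppp2r3a was at 4.61 ± 0.173 and 4.44 ± 0.222 FPKM.

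Of 58 partner genes on lists around these enzymes, 56 were tested, of which 2 rose and 4 fell (10.7%, against 15.5% of all tested genes). The clearest was Stk25, a STE20-type kinase of STRIPAK, at 42.8, 43.4 and 42.1 FPKM in wild type and 31.8, 30.04 and 31.0 FPKM in Ppp6r3 cKO. Its groups lay well apart (log2 fold change -0.47, SE 0.039, limma adjusted p = 0.000437), and it passed under all 17 alternatives (log2 fold changes from -0.49 to -0.45). Of the 12 STRIPAK partners tested, Cttnbp2nl rose (0.37; not passing without wild-type replicate 2 or 3) and Strip2 fell (-0.17; lost without any 1 library), and 9 did not pass. Of the 12 genes of PP2A inhibitors, only Bod1l fell (-0.36; lost without wild-type replicate 1 or 3). Among 8 docking partners Apc, the tumour suppressor of Wnt signalling, rose (0.26; lost without wild-type replicate 2), and 7 did not pass.

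Of the 7 other catalytic subunits of the PPP family that were tested, Ppp3cc, the calcineurin subunit known from testis, fell from 15.5, 16.8 and 17.0 FPKM to 11.8, 13.0 and 13.4 FPKM (log2 fold change -0.37, limma adjusted p = 0.00797), without overlap. The PP1 catalytic genes Ppp1ca, Ppp1cb and Ppp1cc did not pass. None of 13 PP1 regulatory subunits passed by limma: 3 had an unadjusted p under 0.05 (23.1%, against 31.4% of all tested genes), and voom called 1 (7.69%, against 23.0%). Nor did any of the 4 PP2A family subunits outside the list of 33, of which 2 had an unadjusted p under 0.05 and voom called 1, numbers too small to set against those shares.

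Markers of several other cell types of the testis also differed between the groups. Of all tested genes, 7.65% rose and 7.83% fell, the shares to set beside the counts here. The summed level of 8 endothelial markers was 36.3 to 40.4 FPKM in wild type and 57.1 to 60.8 FPKM in Ppp6r3 cKO, with 5 of 8 rising. For 8 macrophage markers (4 of 8 rose) it was 111.2 to 116.5 against 148.2 to 159.5 FPKM, and for 8 fibroblast markers (6 of 8 rose) 499.3 to 510.1 against 600.6 to 620.0 FPKM. Of 11 tested markers of undifferentiated spermatogonia 6 rose and none fell by limma or voom, with sums of 170.3 to 175.1 and 198.4 to 207.8 FPKM. The sum of 8 markers listed as shared among germ cells went from 498.1 to 515.6 FPKM in wild type to 388.7 to 427.8 FPKM, and 4 of 8 fell. Tex101 gave the largest part of that drop (mean 129.3 to 74.6 FPKM), and Dazl, Mael and Taf4b fell as well. Ddx4, Piwil2, Tdrd1 and Dppa3 did not pass. Of the 8, 5 had a negative and 3 a positive log2 fold change, and voom called 5 lower and 1 higher. How evenly germ cell stages share these markers was not tested. The sums of 10 Sertoli markers overlapped, at 1923 to 1981 and 1860 to 2034 FPKM. Clu, which did not pass, made up most of both sums (mean 1156 and 1081 FPKM), so they say little of the other markers. Of the 10, Amh (99.8 to 128.6 FPKM), Gata4, Dmrt1 and Inhbb rose and 6 did not pass, and voom called 4 higher and 1 lower. Of 8 Leydig markers only 1 changed, and it rose (12.5%, against 15.5% of all tested genes that changed). Their sums were 175.5 to 182.9 and 194.9 to 197.4 FPKM. The gene that rose, Hsd3b1, went from a mean of 103.3 to 122.7 FPKM, more than the whole difference of the sums, while Cyp17a1 (27.7 and 24.5 FPKM) and Insl3 (15.1 and 14.1 FPKM) did not pass. Of 6 myoid markers 2 fell (958.6 to 1009 against 846.0 to 914.5 FPKM), and of 5 tested erythroid markers 3 fell (319.9 to 355.6 against 202.8 to 222.6 FPKM). Acta2 carried most of the myoid difference (mean 551.7 to 463.3 FPKM), and Cnn1 was the other myoid marker that fell. Hbb-bs (mean 166.4 to 102.0 FPKM) and Hba-a1 (140.5 to 82.5 FPKM) carried most of the erythroid difference. Every marker list of the testis had members above 0, and the part of any of these cells in the changes of the phosphatase genes was not tested.

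Promoters are described for the 5 genes that passed, of which 4 fell and 1 rose. The window of a gene is the 250 bases before its start in RefSeq on GRCm38.p6, the assembly also called mm10. RefSeq and GENCODE place some starts differently. The windows of Ppp4r4 (chr12:103532315-103532564, plus strand) and Ppme1 (chr7:100371897-100372146, minus strand) lie wholly inside the GENCODE gene and are not printed. Of the windows of Ppp6c and Ankrd52, 102 and 9 bases lie inside the GENCODE gene and are left out of the lines here, and the window of Ppp6r3 lies wholly before the gene. The lines show the remaining upstream bases of the targeted gene, its catalytic partner and the gene that rose, 5′ to 3′ on the strand of the gene. Capitals mark matches, on either strand, to 6 short motifs: the element CNCCTCAG described for STRA8 and MEIOSIN, the E2F site TTCCCGCC, the E-box CACGTG, the cAMP response element TGACGTCA, the CCAAT box CCAAT and the GC box GGGCGG. Letters of the E2F site and the GC box can overlap in part. The lines cover chr19:3575750-3575999 (minus strand) for Ppp6r3, chr2:39226452-39226599 (minus) for Ppp6c and chr10:128376874-128377114 (plus) for Ankrd52.
Ppp6r3: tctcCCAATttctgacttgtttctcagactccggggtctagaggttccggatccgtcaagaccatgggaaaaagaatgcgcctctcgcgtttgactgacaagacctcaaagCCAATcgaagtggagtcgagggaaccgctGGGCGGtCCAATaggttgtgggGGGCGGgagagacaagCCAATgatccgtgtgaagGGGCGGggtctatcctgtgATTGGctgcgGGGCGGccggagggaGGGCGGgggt
Ppp6c: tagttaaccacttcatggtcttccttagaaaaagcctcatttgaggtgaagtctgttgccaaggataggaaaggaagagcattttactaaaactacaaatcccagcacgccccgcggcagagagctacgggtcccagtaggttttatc
Ankrd52: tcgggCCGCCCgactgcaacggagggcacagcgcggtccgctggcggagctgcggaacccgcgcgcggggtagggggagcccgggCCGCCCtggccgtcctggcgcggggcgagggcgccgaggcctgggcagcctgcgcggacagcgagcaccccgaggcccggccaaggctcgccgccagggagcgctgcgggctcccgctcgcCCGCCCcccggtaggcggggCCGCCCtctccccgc

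The 5 windows, counted whole, differ in composition, with 78.4% G and C for Ppp4r4 and 82.8% for Ankrd52 against 51.2% for Ppp6c, where the median over all RefSeq promoters of the same length was 52.4%. That of Ppp4r4, inside the GENCODE gene, holds 8 GC boxes and 1 match to CNCCTCAG. Of 32851 promoters, 32.7% hold a GC box and 6.42% hold that element. The window of Ppp6r3 holds 5 CCAAT boxes and 5 GC boxes, where 33.8% of all promoters hold a CCAAT box. Ppme1 and Ankrd52 hold 2 and 4 GC boxes, and the window of Ppp6c holds none of the 6 motifs. A sequence was found for 28 of the 33 genes, in 35 windows. The GC box was found in 24 of these 35 windows (68.6%), the CCAAT box in 11 (31.4%) and CNCCTCAG in 5 (14.3%), which belong to 4 genes, Ppp4r4, Ppp6r2, Ppp2r3a and Tiprl. The cAMP response element was found in 5 windows of 3 genes (14.3%, against 1.55% of all promoters), and the E2F site and the E-box in 1 window each (2.86%, against 1.86% and 6.02%). These shares count windows, so a gene can count more than once. Repeated windows were removed for the members but not for all promoters. The 6 motifs were chosen after sequences were seen, so no enrichment is read from these shares. A match describes letters in this window, not a bound site.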

How the data were processed

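Whole testis RNA of 3 wild-type and 3 Ppp6r3 cKO samples from mice on postnatal day 9 was measured. TRIzol extraction and a KAPA stranded mRNA kit were used, per the labels' protocols. HISAT2 2.0.5 placed the read pairs on mm10, per the series' design text, and DESeq2 is also listed per the submitters' processing notes. The counting tool, its strand setting and the annotation are not given in the sources used here. The values that the authors deposited are FPKM, although the table's name speaks of counts. Multiplying FPKM by the GENCODE M21 exon length gave whole numbers of a library-wide unit, taken as 1 fragment (tolerance 0.01), for 31625 of 32589 genes above 0 (97.0%), and 948 more were whole with another length, among them Ppp2r5b. The other 16 were left out of the tests. The depth is thus an inference from the values, and the recovered fragments summed to 101.4% to 103.2% of it.

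Log2(FPKM + 0.1) was fitted in limma 3.58.1 (R 4.3.3) with trended, robust variance, 2-sided, over all 17667 tested genes. No replicate pair agreed within sampling noise (chi-square over its degrees of freedom from 2.22 to 4.29). Same-numbered samples were not fitted as pairs in the main test. Correlations of their deviations, from -0.007 to 0.016, showed no sign of pairing but cannot exclude it. Intervals are limma's 95% intervals. Promoter sequences are those of RefSeq on GRCm38.p6, and coordinates of genes those of GENCODE M21. All 33 members are accounted for. Values in every library are given for the targeted gene, Ppp6c, each member that passed and the most abundant member of each class, and up to 3 passing genes are named of each partner list. Ppp2ca, Ppp2r2c, Ppp2r5e, Ppp6r2, Ppp4r3a and Ppp4r3b, and the motifs, were chosen after their values or sequences were seen. Members and lists were chosen with earlier results of these data known. Alternatives changed the model (voom on recovered fragments), the libraries used, the threshold, the scaling, the low-value filter, the pseudocount, the variance estimation, the pairing by replicate number and the treatment of GC and length (splines with 5 degrees of freedom). The fit was tested on simulated counts with the same dispersion for every gene, no GC trend and larger fold changes than most members had. That test therefore says little about the small changes described here. Tables were handled in Python 3.11.15 with pandas 2.3.3 and numpy 2.4.6.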

Additional observations from a re-analysis of the deposited data

How the results depend on the processing

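No member that passed changed direction under the 17 alternative fits, and Ppp4r4 and Ppp6r3 passed in all of them (Ppp6r3 from -0.47 to -0.43). The 5 members that changed became 9 with voom (28.1%, against 23.0% of all genes), 3 with no low-value filter and 2 at an adjusted p under 0.01. Without 1 library they numbered 2 to 5: 3 without wild-type replicate 1, 2 without replicate 2, 3 without replicate 3 and 3 without Ppp6r3 cKO replicate 2. The 2735 changed genes became 4064 with voom, 1508 with no filter and 888 at the stricter threshold, and 1264 to 2456 without 1 library (1636, 1264 and 1329 without wild-type replicate 1, 2 and 3). The 6 changed partner genes became 11 with voom and 2 at the stricter threshold, and 3 to 8 without 1 library, with 3 without wild-type replicate 2 or 3. The difference in the Ppp6r3 share was -7.20 percentage points in fragments, which weight long genes more, and -6.60 to -5.77 without 1 library. Members that did not pass and changed sign were Strn (-0.0019 with quantile normalization, -0.0358 to 0.0312 without 1 library), Ppp6r1 (-0.006 after the GC and length correction, also with the block) and, without 1 library, Tiprl (-0.034 to 0.107), Ppp4c (-0.068 to 0.0073), Ppp4r2 (-0.0239 to 0.0654) and Ankrd28 (-0.0293 to 0.0903). With the replicate number as a block, 5 members passed (Ppp6c was lost, adjusted p = 0.0824, and Ppp2r2c gained), and 2194 genes in all. Whether same-numbered samples share more than that number is not known here. Under the block with the GC and length correction 5 passed, of which 3 were among the original 5 (Ppp4r4, Ppp6r3 and Ppme1) and Ppp2cb and Ppp2r2c were gained; Ankrd52 had an adjusted p of 0.0705. Across the 32 tested members, log2 fold change and GC content had a Pearson r of 0.36, 0.24 without Ppp6r3 cKO replicate 1 and 0.28 after the GC and length correction, against 0.12 across all 17667 tested genes (all share the same libraries). Fewer samples or a stricter threshold leave fewer calls by construction; the cause of the other differences was not tested. Depth limits Ppp2r2b, with 3 to 7 fragments per library.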
